A study of Mus musculus with 6 samples.

Results

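The genes of the CD3 signalling chains (Cd3d, Cd3e, Cd3g and Cd247) and of the CD4 and CD8 coreceptors (Cd4, Cd8a and Cd8b1) were examined in sorted double positive (DP) thymocytes. The 7 genes were chosen by their symbols from 23183 symbols listed in every library, with earlier results of these data known. All 7 passed the filter on low values. Their mRNA was sequenced in 3 WT and 3 NSrp70-cKO (cKO) libraries. WT denotes Nsrp1 f/f mice, which carry loxP-flanked Nsrp1 alleles and no Cre, and cKO denotes Nsrp1 f/f CD4Cre mice, which carry the same alleles with a Cre transgene. All were C57BL/6 mice aged 6 weeks. Nsrp1 encodes NSrp70, a protein of the nuclear speckles that takes part in RNA splicing. The Cre transgene is driven by regulatory elements of Cd4, itself among the 7 genes. The cells were sorted as CD4+ CD8+, so surface CD4 and CD8 were gated in both groups. The labels do not say whether the 3 libraries of a group came from separate mice, so the p-values measure the spread between these libraries, which may be technical.

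T cells recognise peptides on MHC molecules with the T cell receptor (TCR), whose antigen-binding chains have short cytoplasmic tails and signal through the CD3 chains. CD3ε pairs with CD3γ or with CD3δ, and the ζ chain, which Cd247 encodes, joins as a homodimer. The cytoplasmic tails of these chains carry the tyrosine motifs that the kinase Lck phosphorylates and that Zap70 binds. CD4 binds MHC class II and CD8, a dimer of the α and β chains that Cd8a and Cd8b1 encode, binds MHC class I, and both bring Lck to the receptor. DP thymocytes make both coreceptors together with a low amount of surface TCR, and after positive selection they keep CD4 or CD8 alone.

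The 3 genes of the CD3γ, CD3δ and CD3ε chains lie next to each other on chromosome 9 of GRCm38, the assembly of mm10, and both CD8 genes lie next to each other on chromosome 6. By GENCODE, Cd3g occupies positions 44969572 to 44980431 of chromosome 9 on the minus strand. Cd3d follows at 44981786 to 44987339 on the plus strand and Cd3e at 44998740 to 45009627 on the minus strand. Cd3g and Cd3d therefore point away from each other, with 1355 bases between their starts, while the start of Cd3e lies 27841 bases from that of Cd3d. Cd8b1 (chromosome 6, 71322788 to 71337494) and Cd8a (71373427 to 71379173) are both on the plus strand with starts 50639 bases apart. Cd4 lies elsewhere on chromosome 6, at 124864692 to 124888221 on the minus strand, and Cd247 on chromosome 1, at 165788681 to 165877277 on the plus strand. Cd3e overlaps the annotated antisense gene Gm48719, and Cd247 overlaps Pou2f1 and the antisense gene Gm37469 on the opposite strand. The libraries were made with a strand-specific kit, but the strand setting of the quantification is not given in the sources used here, so reads of such overlaps may have been shared.

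The RefSeq promoter table of GRCm38.p6 held entries for 5 of the 7 genes, Cd3d, Cd3e, Cd3g, Cd247 and Cd8a. The 250 bases before each start are printed 5′ to 3′ on the strand of the gene, because the CD3 genes of chromosome 9 differed from each other in the libraries although they are neighbours. Capitals mark matches on either strand to an E box (CANNTG), bound by E proteins such as those of Tcf3 and Tcf12, to an ETS core (GGAAG), bound by Ets1 and its relatives, to a RUNX core (TGTGGT) or to a TATA box (TATAAA). Matches may overlap, as they do in Cd8a.
Cd3d, chr9:44981536-44981785, plus strand: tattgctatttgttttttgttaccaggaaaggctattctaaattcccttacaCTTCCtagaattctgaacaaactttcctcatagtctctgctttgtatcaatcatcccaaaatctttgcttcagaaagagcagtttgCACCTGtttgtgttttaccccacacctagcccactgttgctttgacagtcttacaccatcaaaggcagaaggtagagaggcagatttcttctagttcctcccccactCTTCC
Cd3e, chr9:45009612-45009861, minus strand: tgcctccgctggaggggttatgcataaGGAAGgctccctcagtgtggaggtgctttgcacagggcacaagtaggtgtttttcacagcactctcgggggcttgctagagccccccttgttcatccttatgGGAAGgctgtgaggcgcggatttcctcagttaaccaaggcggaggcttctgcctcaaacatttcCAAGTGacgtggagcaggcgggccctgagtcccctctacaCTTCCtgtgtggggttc
Cd3g, chr9:44980432-44980681, minus strand: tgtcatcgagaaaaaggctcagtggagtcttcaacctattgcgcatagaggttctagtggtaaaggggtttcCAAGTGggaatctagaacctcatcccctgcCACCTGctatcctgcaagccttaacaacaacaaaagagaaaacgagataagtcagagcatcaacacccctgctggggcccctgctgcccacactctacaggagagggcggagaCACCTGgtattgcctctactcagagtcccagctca
Cd247, chr1:165788431-165788680, plus strand: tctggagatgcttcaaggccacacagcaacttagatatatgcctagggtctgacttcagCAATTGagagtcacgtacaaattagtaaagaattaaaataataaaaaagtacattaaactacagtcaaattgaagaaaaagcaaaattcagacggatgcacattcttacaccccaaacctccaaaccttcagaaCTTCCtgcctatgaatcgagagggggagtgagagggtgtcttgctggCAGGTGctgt
Cd8a, chr6:71373177-71373426, plus strand: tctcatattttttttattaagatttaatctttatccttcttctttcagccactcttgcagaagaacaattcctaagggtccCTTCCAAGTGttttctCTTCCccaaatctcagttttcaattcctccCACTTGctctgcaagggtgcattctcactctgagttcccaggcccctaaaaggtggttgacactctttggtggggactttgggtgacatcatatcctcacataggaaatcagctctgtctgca
Each of these windows held at least 1 E box, with 3 in Cd3g, 2 in Cd247 and in Cd8a and 1 in Cd3d and in Cd3e, against 66.2% of 32851 promoter windows of the same length with at least 1. The ETS core was found 3 times in Cd3e, 2 times in Cd3d and in Cd8a and 1 time in Cd247, and the letters were not in the window of Cd3g, whereas 64.1% of all windows held it. RUNX cores and TATA boxes, held by 14.0% and 12.4% of all windows, were not matched in these 5 windows. The windows of Cd3e and Cd3g had a GC content of 57.2% and 51.6%, and those of Cd3d, Cd247 and Cd8a of 41.2%, 41.2% and 42.8%, against a median of 52.4% over all windows. These matches are a description of letters, and binding was not measured.

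FPKM counts the fragments of a gene per kilobase of its transcript, relative to all mapped fragments of the library, so levels of different genes can be set side by side. From the steps of 1 fragment at low values, the depth was estimated as 20.7 to 20.8 M fragments (M, mega) in the WT libraries and 13.2 to 20.6 M in the cKO libraries. At this depth the counting error of the 7 genes, per kilobase of transcript, was at most 1.15% of their level. The cKO libraries varied more than the WT libraries, with a coefficient of variation of the 7 genes of 6.88% to 19.6% against 0.180% to 2.30%. Because the WT libraries lay so close together, each limma test was also run on their average as 1 WT sample. The ratios between genes given below were not tested in this way. The summed FPKM of a library was 521296 to 531517 in WT and 701396 to 850548 in cKO. The 100 highest symbols held 35.7% to 36.8% of it in WT and 43.2% to 48.0% in cKO, and the part of this difference in the values of the 7 genes was not tested. Nsrp1, listed under its older symbol Ccdc55, had an FPKM of 20.2 to 21.1 in WT, and its cKO values, all lower, averaged 16.2 ± 1.39 (SD, n = 3). Xist stood at 69.8 to 72.0 in WT and 4.07 to 5.44 in cKO, and Ddx3y of chromosome Y was listed at 0 in the 3 WT libraries and stood at 26.2 to 35.0 in cKO, so sex and genotype cannot be told apart.

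With median-of-ratios scaling, 6 of the 7 genes were called higher in cKO, but Cd3g, Cd247, Cd4, Cd8a and Cd8b1 turned to lower values under quantile normalization. Cd3e, the chain shared by the CD3γε and CD3δε pairs, had lower values in all 3 cKO libraries and did not pass the test. The increases were between 1.33-fold for Cd4 and 1.82-fold for Cd8b1 as ratios of mean FPKM. Under every scaling tried, Cd3d, Cd3g and Cd247 were higher relative to Cd3e in every cKO library than in any WT library. These 3 ratios share Cd3e, so they are not separate observations. A single factor per library cannot change them, so only quantile normalization and the length and GC correction put them to a test. Each had an exact permutation p of 0.10 (0.117 after Benjamini-Hochberg adjustment over 7 ratios), the smallest that the design allows. How often other gene pairs also did not overlap was not tested. Among all 10326 genes tested, limma (on log2(FPKM + 1), Benjamini-Hochberg adjusted p under 0.05) called 35.8% higher and 29.8% lower in cKO, so calls were common throughout. The median log2 fold change was 0.50 over the 7 genes and 0.039 over all genes tested. With WT as 1 sample, limma called 15.9% of all genes and 0 of the 7, of which only Cd3d had an unadjusted p under 0.05 (1 of 7). For 6 of the 7 genes the lowest cKO value exceeded the highest WT value, as it did for 39.2% of all genes tested, and for 1 of the 7 the cKO values were all below WT, as for 33.3%. In these bulk samples, fewer cells of a type and less RNA per cell cannot be told apart.

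**Figure D1:**
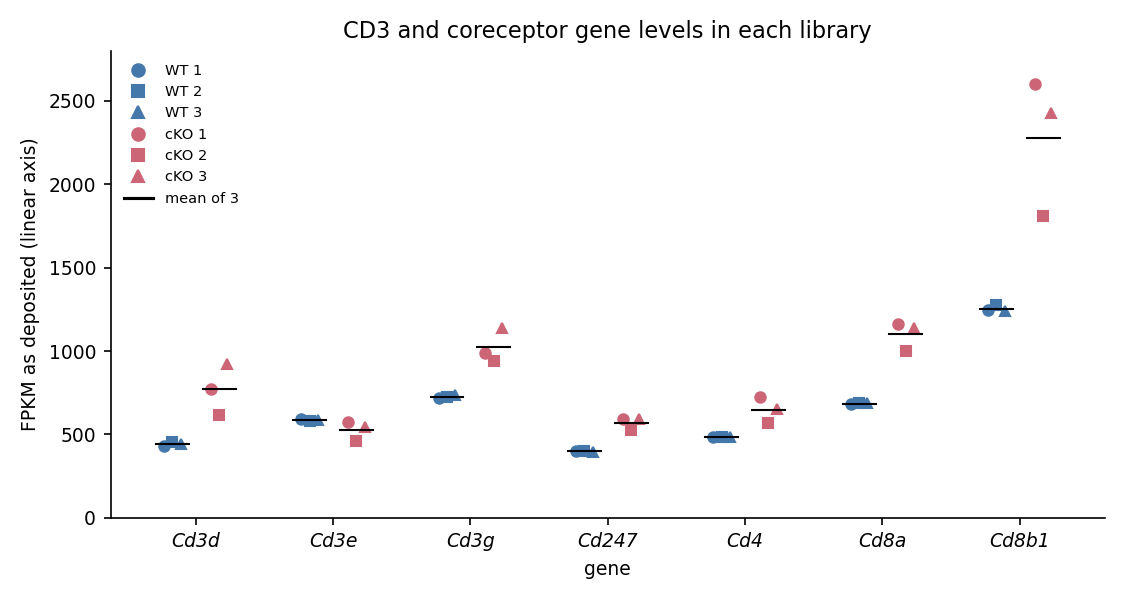
FPKM of the 7 genes (linear axis from 0) in each of the 3 WT libraries (blue) and 3 cKO libraries (red), with black lines at the group means. The WT points of a gene nearly coincide, the cKO points spread, and Cd3e alone of the 7 has its cKO points below the WT points.

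Cd3e, whose product pairs with CD3γ and CD3δ and is needed for the receptor to assemble, had an FPKM of 589.5, 583 and 589 in WT 1, 2 and 3 and of 574, 458 and 542 in cKO 1, 2 and 3. All cKO libraries were below all WT libraries, with cKO 2 the lowest and cKO 1 close to the WT values. The log2 fold change of -0.17 (SE 0.11, 95% confidence interval -0.43 to 0.093) did not pass the test (adjusted p = 0.215 from limma). Cd3e was called lower, by contrast, under quantile normalization (-0.80, adjusted p = 0.000331 from limma), with the FPKM total of the libraries made equal (-0.73, adjusted p = 0.000151) and after a correction for transcript length and GC content (-0.49, adjusted p = 0.00495).

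Cd3d, which encodes CD3δ, a chain needed for the passage of thymocytes to the mature stages, stood at 433, 453 and 444 in WT and at 773, 618 and 919.9 in cKO. The groups did not overlap, and cKO 3 had the highest and cKO 2 the lowest of the cKO values. Its log2 fold change was 0.78 (SE 0.15, 95% confidence interval 0.42 to 1.14, adjusted p = 0.00357 from limma), the largest of the CD3 chains. It kept its direction under every scaling but was no longer called under quantile normalization (0.12, adjusted p = 0.204 from limma), with the same FPKM total (0.22, adjusted p = 0.0653) or with WT as 1 sample (adjusted p = 0.119).

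Cd3g, which encodes CD3γ, had an FPKM of 717, 722 and 739 in WT and of 987, 939.9 and 1137 in cKO. Every cKO library was above every WT library, and cKO 3 was again the highest. The log2 fold change was 0.49 (SE 0.11, 95% confidence interval 0.23 to 0.75, adjusted p = 0.00679 from limma). Its direction turned to -0.28 (adjusted p = 0.00303 from limma) under quantile normalization, to -0.074 (adjusted p = 0.374) with the same FPKM total and to -0.10 (adjusted p = 0.302) after the length and GC correction. Cd3g has the shortest transcript of the 7 genes, at 1023 nucleotides against a median of 3003 over the tested genes.

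Cd247, which encodes the ζ chain, stood at 402, 403 and 397 in WT and at 593, 524 and 591 in cKO. The groups did not overlap, and cKO 1 and cKO 3 were nearly equal with cKO 2 below them. The log2 fold change was 0.50 (SE 0.091, 95% confidence interval 0.29 to 0.72, adjusted p = 0.00261 from limma). It was -0.11 under quantile normalization and -0.059 with the same FPKM total, neither of which passed the test, and 0.33 (adjusted p = 0.0214 from limma) after the length and GC correction.

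The 3 coreceptor genes were called higher in cKO with median-of-ratios scaling, and all 3 turned to lower values under quantile normalization. Cd4 had an FPKM of 486, 487 and 486 in WT and of 723, 566 and 650.5 in cKO. The lowest cKO value, in cKO 2, was above the highest WT value. The log2 fold change of Cd4 was 0.40 (SE 0.11, 95% confidence interval 0.13 to 0.67, adjusted p = 0.0175 from limma), the smallest of the 6 genes called. This call was lost when WT 1, WT 2 or WT 3 was left out (adjusted p = 0.0651, 0.0656 and 0.0647 from limma), and the direction turned to -0.27 (adjusted p = 0.0311) under quantile normalization and to -0.16 (adjusted p = 0.127) with the same FPKM total.

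Cd8a, which encodes the CD8 chain that binds Lck, had an FPKM of 680.3, 688 and 687 in WT and of 1163, 1003 and 1138 in cKO. The groups were well apart, and cKO 2 was the lowest of its group, as it was for every gene of the 7. The log2 fold change was 0.68 (SE 0.10, 95% confidence interval 0.43 to 0.93, adjusted p = 0.00134 from limma), 0.64 (adjusted p = 0.00236) after the length and GC correction, and -0.051 (adjusted p = 0.557) under quantile normalization.

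Cd8b1, which encodes the β chain that raises the affinity of CD8 for MHC class I, was the highest of the 7 genes, at 1248, 1275 and 1240.2 in WT and 2603, 1809 and 2426 in cKO. The groups did not overlap, but the cKO values differed among themselves by more than the lowest of them differed from the WT mean. The log2 fold change was 0.84 (SE 0.17, 95% confidence interval 0.45 to 1.23, adjusted p = 0.00364 from limma). It was the only gene of the 7 still called higher with the same FPKM total (0.28, adjusted p = 0.0396 from limma), and it stood at -0.028 (adjusted p = 0.676) under quantile normalization.

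**Figure D2:**
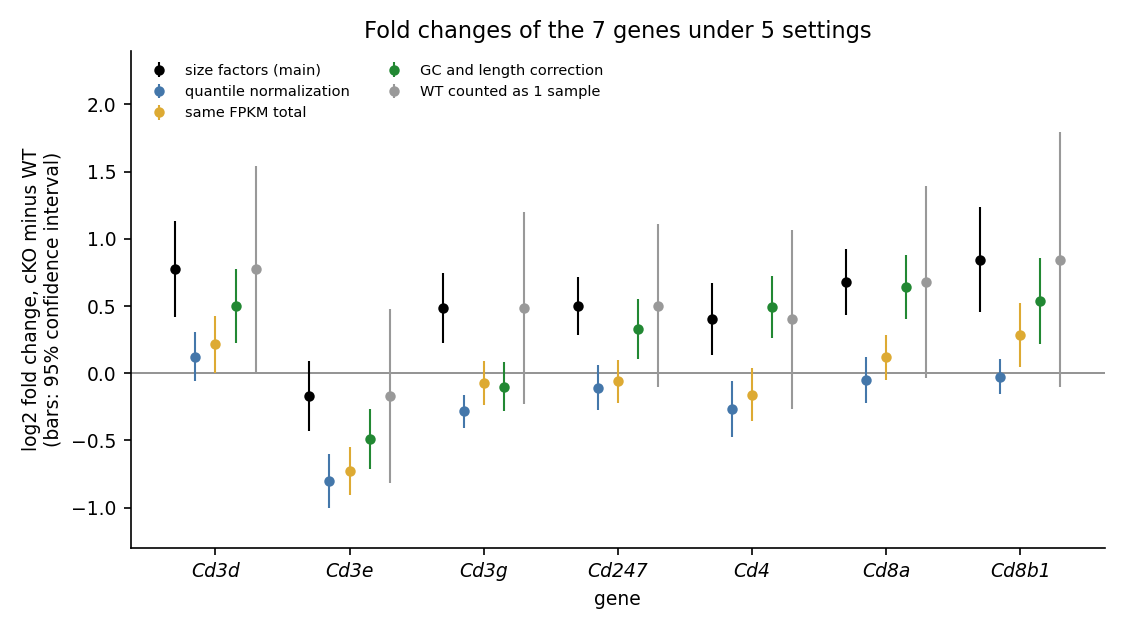
Log2 fold change of each gene, cKO minus WT, with its 95% confidence interval from limma, under the main median-of-ratios scaling (black) and 4 other settings (colours). Cd3e lies below 0 in all 5 settings, Cd3d above 0 in all 5, and Cd3g, Cd247, Cd4, Cd8a and Cd8b1 change sign under quantile normalization.

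Making the FPKM total of the libraries equal moved the median log2 fold change of all genes by -0.48. Relative to that median, Cd8b1 stood at 0.72, Cd3d at 0.66, Cd8a at 0.56 and Cd247 at 0.38. Cd3g stood at 0.37, Cd4 at 0.28 and Cd3e at -0.29. The setting divides each library by 1 factor, so taking out the median largely restores the main fit. The kept directions of the 7 genes are therefore not a separate check. In the main fit, 92.5% of all tested genes had a smaller log2 fold change than Cd8b1 and 36.4% a smaller one than Cd3e. Under quantile normalization these shares were 45.3% for Cd8b1 and 8.07% for Cd3e.

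Ratios between genes of the same library do not depend on the scaling factor of that library, and 7 of them were tested by an exact two-sided permutation test, in which 3 libraries against 3 cannot give a p under 0.10. The ratio of Cd3d to Cd3e was 0.734, 0.777 and 0.754 in the WT libraries and 1.346, 1.349 and 1.70 in the cKO libraries. Cd3d thus stood below Cd3e in all WT libraries and above it in all cKO libraries, a difference of 0.95 on the log2 scale. Cd3g to Cd3e was 1.22, 1.24 and 1.25 in WT and 1.72, 2.05 and 2.10 in cKO, a log2 difference of 0.66. Cd247 to Cd3e was 0.683, 0.690 and 0.675 in WT and 1.03, 1.14 and 1.09 in cKO, a log2 difference of 0.67. These 3 ratios did not overlap between the groups, each with an exact permutation p of 0.10 (0.117 after Benjamini-Hochberg adjustment over the 7 ratios), the smallest that the design allows. They also did not overlap after the length and GC correction (log2 differences of 0.99, 0.39 and 0.82 for Cd3d, Cd3g and Cd247) or under quantile normalization (0.93, 0.52 and 0.70).

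Cd3d to Cd3g, the pair that starts 1355 bases apart, was 0.603, 0.628 and 0.601 in WT and 0.782, 0.658 and 0.809 in cKO. The groups did not overlap (log2 difference 0.29, and 0.60 after the length and GC correction, exact permutation p = 0.10), although cKO 2 lay close to WT 2. Within CD8, the ratio of the β to the α chain gene was 1.83, 1.85 and 1.81 in WT and 2.24, 1.80 and 2.13 in cKO. The value of cKO 2 lay below the WT values and those of cKO 1 and cKO 3 above them, and the log2 difference of 0.16 was within that spread (exact permutation p = 0.40). Cd4 to Cd8a, a balance between the coreceptors, was 0.715, 0.708 and 0.707 in WT and lower in each cKO library, at 0.621, 0.564 and 0.572 (log2 difference -0.28, and -0.15 after the length and GC correction, exact permutation p = 0.10). The summed level of Cd3d, Cd3e and Cd3g relative to that of Cd8a and Cd8b1 was 0.902, 0.896 and 0.919 in WT and 0.620, 0.717 and 0.729 in cKO (log2 difference -0.40, and -0.60 after the length and GC correction, exact permutation p = 0.10), again without overlap.

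**Figure D3:**
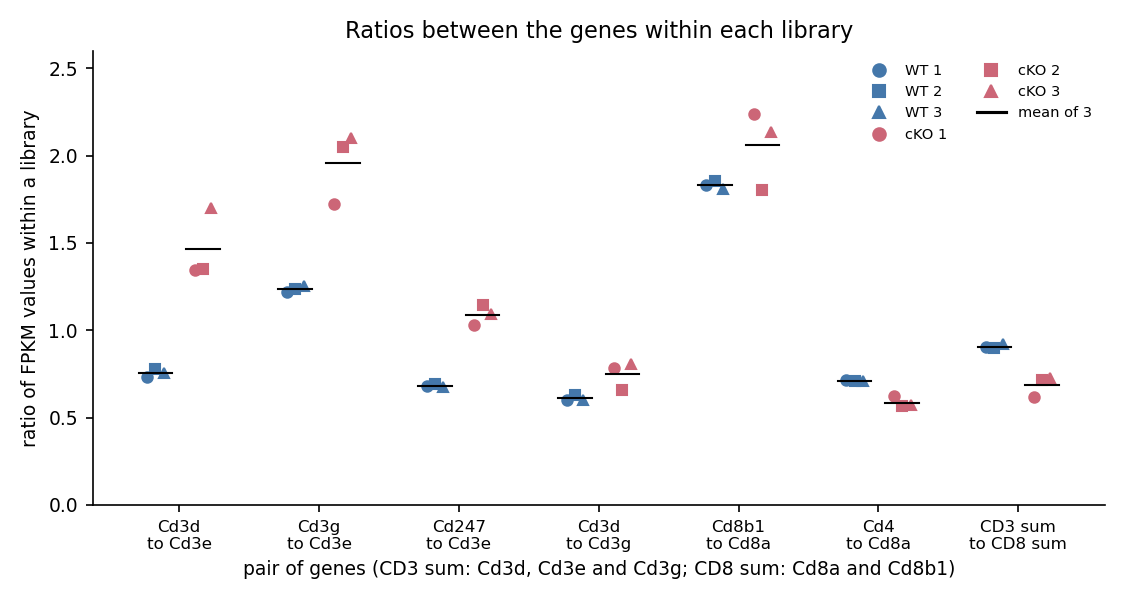
Ratio of FPKM values within each library (linear axis from 0) for the 7 pairs of genes or sums, WT in blue and cKO in red, with black lines at the group means. The 3 ratios to Cd3e and the ratio of Cd3d to Cd3g are higher in every cKO library, the ratios of Cd4 to Cd8a and of the CD3 sum to the CD8 sum are lower, and Cd8b1 to Cd8a overlaps.

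In WT the order of the levels was Cd8b1, Cd3g, Cd8a, Cd3e, Cd4, Cd3d and Cd247, from a mean FPKM of 1254 down to 401, and no neighbours in this order overlapped in their ranges. In cKO it was Cd8b1 (2279 ± 417, SD, n = 3), Cd8a (1101 ± 86.1), Cd3g (1021 ± 103), Cd3d (770.3 ± 151), Cd4 (646 ± 78.6), Cd247 (569 ± 39.2) and Cd3e (525 ± 59.6). Ranges overlapped between Cd8a and Cd3g, between Cd3d and Cd4, between Cd4 and Cd247 and between Cd247 and Cd3e, yet within each of the 3 cKO libraries the order was the same. Cd3e thus held the fourth place in WT and the last in cKO. Ranked by FPKM among all 23183 symbols of a library, Cd3e stood between 124 and 127 in WT and between 175 and 200 in cKO, whereas Cd8b1 stood at 62 to 64 in WT and 63 to 66 in cKO and Cd8a at 107 to 110 and 106 to 119. Cd3g ranked at 102 to 103 in WT and 116 to 120 in cKO, and Cd4 at 142 to 147 and 150 to 175, without overlap. Cd3d ranked at 154 to 162 in WT and 143 to 161 in cKO, and Cd247 at 170 to 173 and 170 to 190, so their ranges overlapped.

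**Figure D4:**
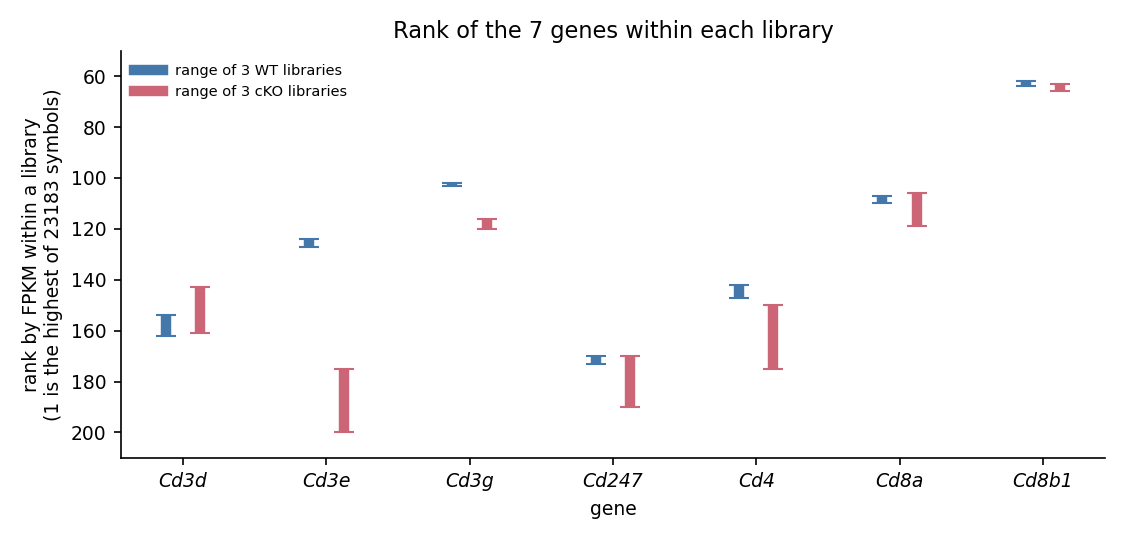
Rank of each gene by FPKM among all symbols of a library (vertical axis inverted, 1 the highest), as the range of 3 WT libraries (blue) and of 3 cKO libraries (red). Cd3e lies at ranks of 124 to 127 in WT and of 175 to 200 in cKO, and Cd8b1 lies between 62 and 66.

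For each gene, the tested genes with the most similar profile over the 6 libraries were found by the root-mean-square difference of the mean-centred log2 values. The nearest to Cd3d were the ribosomal protein genes Rps18 (0.019) and Rpl5 (0.020), and the nearest to Cd3e were Vav1 (0.012), an exchange factor of TCR signalling, and Tspan32 (0.023), a tetraspanin. Cd247 lay nearest to Themis (0.013), an adaptor of thymocyte TCR signalling, and to Hsdl2 (0.014). Cd3g was followed most closely by Gatad1 and Ube2v2, Cd4 by Wrap53 and Gtf2h4, Cd8a by Pop4 and Nup62, and Cd8b1 by Sdhb, a subunit of respiratory complex II, and Bre. Among the 7 genes themselves, Cd3g and Cd247 were the closest pair (0.063), and Cd3e was the farthest from each of the other 6. Between 206 and 519 tested genes were nearer to each of those 6 than the closest of the 7, and 5282 were nearer to Cd3e than Cd4, its closest at 0.29.

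Most genes next to Cd4 were called lower in cKO with median-of-ratios scaling, where Cd4 itself was called higher. Cd4 turned to lower values under quantile normalization (-0.27) and with the same FPKM total (-0.16), so this contrast depended on the scaling. Over all tested genes, 35.8% were called higher and 29.8% lower in the main fit. Of the 5 tested neighbours of Cd4, limma called 4 lower and 0 higher, with log2 fold changes from -1.24 for P3h3, a collagen prolyl hydroxylase gene, to -0.15 for Ptms. The counts were 2 higher and 1 lower of 4 around the CD3 cluster, 2 and 0 of 5 at the CD8 locus and 1 and 2 of 3 around Cd247. After the length and GC correction, only P3h3 of the 5 neighbours of Cd4 was still called lower (-0.67, adjusted p = 0.0328 from limma). P3h3 and Ptms were named after their values were seen. Of the 24 nearest genes on either side of the CD3 cluster, the CD8 locus, Cd4 and Cd247, 17 passed the filter, and limma called 5 higher and 7 lower, with log2 fold changes from -1.24 to 1.07 (5 and 3 after the length and GC correction, 1 and 11 with the same FPKM total). Around the CD3 cluster, Ube4a, 3957 bases from Cd3g, was at 17.6 in WT and 19.4 ± 0.840 in cKO (log2 fold change 0.14, adjusted p = 0.0884 from limma, but -0.39 with adjusted p = 0.00590 with the same FPKM total). Mpzl2 beyond Cd3e was under the filter at 0.898 and 0.855. Rmnd5a, 9461 bases from Cd8a, stood at 307 and 349 ± 35.7 (log2 fold change 0.18, adjusted p = 0.127 from limma, but -0.38 under quantile normalization and with the same FPKM total, called lower in both). Krcc1, on the side of Cd8b1, was at 31.4 and 39.2 (0.30, adjusted p = 0.0368 from limma, but -0.24 with the same FPKM total and -0.22 after the length and GC correction). Gpr162, which ends 497 bases from Cd4, was lower in cKO at 41.2 ± 1.85 against 56.7 (log2 fold change -0.45, adjusted p = 0.000877 from limma, turning to 0.12 after the length and GC correction). Lag3, the MHC class II receptor gene on the other side of Cd4, was lower at 3.90 against 6.03 (-0.54, adjusted p = 0.0134 from limma, but -0.15 and not called after the length and GC correction). Next to Cd247, Creg1 was higher at 9.51 against 7.26 (0.35, adjusted p = 0.00752 from limma, but -0.15 with the same FPKM total). Pou2f1, which overlaps the end of Cd247, was lower at 6.95 against 8.22 (-0.21, adjusted p = 0.0282 from limma, a call lost under quantile normalization and after the length and GC correction).

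The other genes of the receptor pathway were taken from lists of known components. Of 9 TCR chains and related signalling subunits, 5 were matched by symbol, and Trac, Trbc1, Trbc2 and Trdc were not analysed here. Trat1, a transmembrane adaptor that binds CD3ζ, rose from 116 (range 111 to 119.7) to 235, 209 and 232 (log2 fold change 0.95, adjusted p = 0.000172 from limma) and was higher under every scaling. Tyrobp, a signalling adaptor known from NK and myeloid cells, passed the test at a low level, from 2.02 to 3.54 ± 0.694 (0.59, adjusted p = 0.0188 from limma), but not with the same FPKM total (0.18, adjusted p = 0.365) or after the length and GC correction (0.083, adjusted p = 0.720). Ptcra, the surrogate α chain of the pre-TCR, was at 24.8 in WT and 25.8 ± 5.02 in cKO, and Fcer1g and Hcst also did not pass the test.

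The proximal partners of the receptor, a list that also holds genes that restrain its signal, were called in either direction about as often as all tested genes (35.8% higher and 29.8% lower). Of 23 proximal partners tested, 7 were called higher and 8 lower, with a median log2 fold change of -0.074, but quantile normalization gave 2 higher and 14 lower, and the same FPKM total 1 and 18. Fyn, the second Src-family kinase of the receptor, fell from 50.7 (range 49.9 to 51.2) to 22.8, 25.8 and 24.7 (log2 fold change -1.03, adjusted p = 0.000101 from limma). Plcg1, the phospholipase that starts the calcium signal, fell from 55.6 to 26.8 ± 3.22 (-1.04, adjusted p = 0.000205 from limma). Csk, the kinase that holds Lck inactive, was lower at 63.6 ± 2.63 against 108 (-0.75, adjusted p = 0.000184 from limma, and -0.21 after the length and GC correction), and Unc119, an activator of Lck and Fyn, at 1.65 against 4.97 (-1.18, adjusted p = 0.000268). Nck1, an adaptor that binds the tail of CD3ε, was higher at 47.3 ± 2.68 against 27.0 (0.78, adjusted p = 0.000172 from limma). These 5 genes kept their direction under every scaling and their call with WT as 1 sample. Cblb, a ubiquitin ligase that restrains the receptor, was lower at 4.05 ± 0.181 against 6.35 (-0.54, adjusted p = 0.000795 from limma). Lck, which both coreceptors bind, stood at 1012 to 1019 in WT and 1227 ± 106 in cKO with no overlap (0.27, adjusted p = 0.0715 from limma), and this direction flipped under quantile normalization and with the same FPKM total.

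Among 9 accessory receptors of the cell surface, 3 were called higher and 3 lower, with a median log2 fold change of 0.070. This was near the shares over all tested genes (35.8% higher and 29.8% lower). Quantile normalization gave 1 higher and 6 lower, the same FPKM total 0 and 6, and the length and GC correction 3 and 3. Cd53, a tetraspanin, was lower at 11.8 ± 0.890 against 24.5 (log2 fold change -1.001, adjusted p = 0.000146 from limma) and Cd28, the costimulatory receptor, at 72.6 ± 1.24 against 89.1 (-0.29, adjusted p = 0.00410), both under every scaling. Cd48 was higher at 44.5 ± 3.00 against 27.9 (0.65, adjusted p = 0.000360 from limma, but -0.043 after the length and GC correction). Thy1 was higher at 1985 ± 342 against 1242 (0.66, adjusted p = 0.00787 from limma, but -0.18 under quantile normalization). Cd2, the receptor for CD48, was higher at 172 ± 27.5 against 126 (0.44, adjusted p = 0.0179 from limma, but -0.12 with the same FPKM total), and Cd1d1 lower at 25.8 ± 4.65 against 36.6 (-0.50, adjusted p = 0.00991 from limma).

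Factors known to regulate the Cd4, Cd8 or CD3 genes were mostly lower in cKO. Of 18 such regulators tested, 14 were called lower and 2 higher, with a median log2 fold change of -0.57. The counts were 14 and 0 under quantile normalization and 18 and 0 with the same FPKM total. After the length and GC correction they were 11 and 1. Over all 10326 tested genes, 3073 were called lower in the main fit, 3041 under quantile normalization and 6186 with the same FPKM total. The length and GC correction called 2435 of 10263 genes lower. The same FPKM total moved the median of all genes by -0.48, so its count of 18 is not a separate check. Zbtb7b (ThPOK), the factor of the CD4 lineage, was at 2.72 to 3.05 in WT and at 0.215, 0.300 and 0.0649 in cKO (log2 fold change -1.68, understated by the + 1, adjusted p = 0.000101 from limma). Runx3, the factor of the CD8 lineage that silences Cd4, was also lower, at 1.80 ± 0.306 against 5.11 (-1.13, adjusted p = 0.000191 from limma). Lef1 stood at 83.5 ± 6.06 against 155 (-0.89, adjusted p = 0.000166 from limma) and Patz1, a POZ-domain factor of the coreceptor genes, at 37.6 ± 1.79 against 64.7 (-0.77, adjusted p = 0.000188). Tcf3, which encodes the E proteins E12 and E47, was lower at 49.2 ± 5.34 against 80.5 (-0.71, adjusted p = 0.000497 from limma), and Chd4, the remodeller of the NuRD complex, at 71.9 ± 6.52 against 118 (-0.72, adjusted p = 0.000497). These 6 genes had lower values under every scaling, but after the length and GC correction Tcf3 was no longer called (-0.12, adjusted p = 0.293 from limma) and Patz1 stood at -0.26, Chd4 at -0.34, Runx3 at -0.66 and Zbtb7b at -0.99. With the uncorrected values, 5 of the 18 regulators were called with WT as 1 sample.

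**Figure D5:**
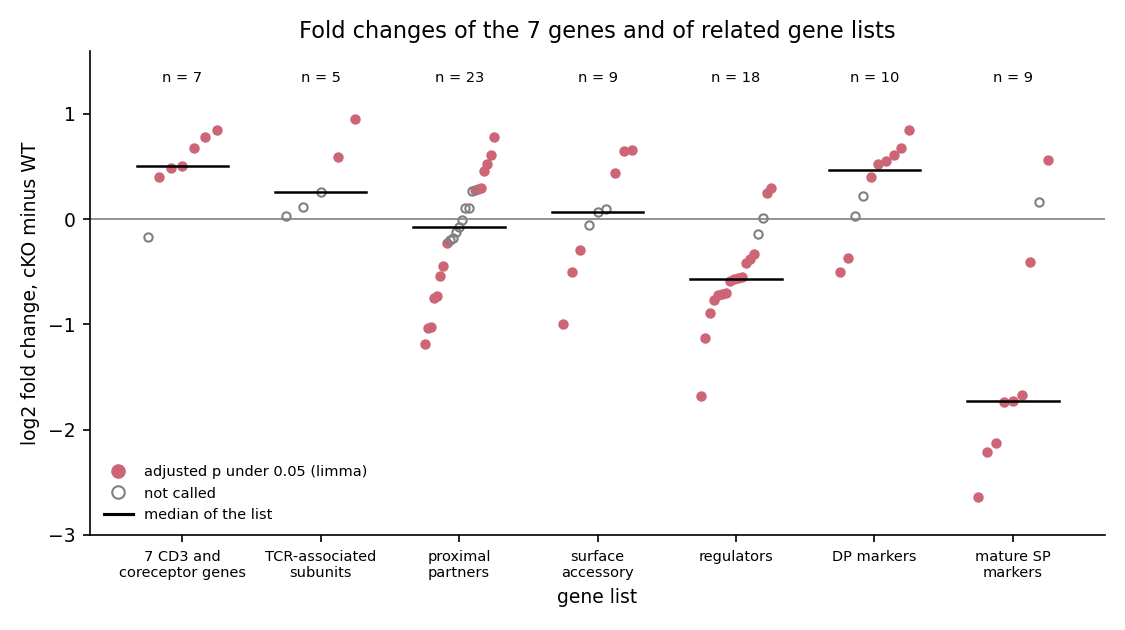
Log2 fold changes (cKO minus WT, log2(FPKM + 1) scale) of the 7 genes and of 6 related lists, 1 point per tested gene, filled where the adjusted p from limma is under 0.05, with a black line at the median. The 7 genes have a median of 0.50, which turns with the scaling as given in the text, the regulators of -0.57 and the mature markers of -1.73.

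Markers of DP thymocytes were examined next. All 10 passed the filter on low values, among them Rag1 and Rag2, the recombinase genes. All 9 markers of mature single positive thymocytes passed it as well, so passing the filter cannot check the label of the cells. Rag2 stood at 54.1 to 56.3 in WT and 81.8, 77.5 and 87.3 in cKO (log2 fold change 0.56, adjusted p = 0.000618 from limma), but at a log2 fold change of 0.0026 and not called with the same FPKM total. Rag1 was at 973 and 1502 ± 254 (0.61, adjusted p = 0.0101 from limma, but -0.18 under quantile normalization). Of the 10 markers, which include Cd4, Cd8a and Cd8b1, 6 were called higher and 2 lower, against 1 and 5 under quantile normalization.

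Some marker lists of other cells differed in their summed FPKM between the groups. The sums of the macrophage, dendritic cell and epithelial or stromal lists overlapped. The part of other cells in the values of the 7 genes was not tested. Of 9 markers of mature single positive thymocytes, which carry more surface TCR than DP cells, 7 were called lower and 1 higher, with a summed FPKM of 195.8 to 199.96 in WT and 149 to 168 in cKO. S1pr1, the egress receptor, was at 4.11 to 4.79 in WT and 0.133, 0.203 and 0.201 in cKO, and Ccr7 at 15.1 to 16.2 and 1.69 ± 0.711. The double-negative or gamma delta list summed to 9.74 to 10.3 in WT and 7.04 to 9.005 in cKO. Erythroid markers, of which 5 of 6 were listed, summed to 1.96 to 2.72 in WT and 12.3 to 26.6 in cKO, with Hba-a1 and Hbb-b1 called higher. The B cell list summed to 22.8 to 24.2 in WT and 26.6 to 39.4 in cKO, nearly all of it Cd79b. The NK cell list summed to 54.3 to 60.1 and 77.1 to 105, nearly all of it Gzma, with Ncr1 at 0.026 and 0.121. These sums are of unscaled FPKM. With the same FPKM total, limma called neither Cd79b (-0.025, adjusted p = 0.828) nor Gzma (0.13, adjusted p = 0.162). After the length and GC correction Gzma stood at -0.035 (adjusted p = 0.770 from limma), while Cd79b was still called higher (0.40, adjusted p = 0.0191). Macrophage markers summed to 4.89 to 7.04 in WT and 3.58 to 5.72 in cKO, dendritic cell markers to at most 0.579 and 0.870, and epithelial or stromal markers to 3.48 to 3.94 and 1.91 to 3.66, with Krt5 and Foxn1 listed at 0 in all 6 libraries.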

How the data were processed

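Sorted DP thymocytes in 3 WT and 3 cKO samples were profiled by poly(A)-enriched, strand-specific mRNA-seq. The authors mapped the reads to mm10 with TopHat and deposited FPKM values from Cufflinks, 1 per gene symbol and library. Versions and the gene annotation are not given in the sources used here. Groups and replicate numbers came from the labels. The authors tested counts with DESeq2, but the deposited values are not counts, so a log-scale test was used instead.

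Median-of-ratios size factors (1.00 to 1.01) were divided out. Symbols had to reach an FPKM of 1 in at least 3 libraries, which 10326 did. Their log2(FPKM + 1) values were compared between cKO and WT by limma 3.58.1 (R 4.3.3, lmFit, eBayes with a trend), with Benjamini-Hochberg adjustment over all of them at 0.05. The + 1 understates the change of low genes. Low values of single-transcript genes lie on steps of 1 fragment, from which the depth was estimated, with an assumed fragment length of 200 nucleotides. Between 70.2% and 76.9% of low values lay within 0.1 fragment of a whole number, so read counts were not recovered. The chi-square per degree of freedom was 1.47 to 1.58 between WT libraries, above sampling noise, and 26.4 to 61.6 between cKO libraries. These values rest on estimated fragments and cannot decide whether the WT libraries are technical repeats. All libraries were kept as separate samples in the main fit, and the WT libraries were counted as 1 in a further limma fit. Ratios were compared by exact two-sided permutation tests over samples. Positions and lengths came from GENCODE mouse release 21 and promoters from RefSeq. The length and GC correction removed natural splines with 5 degrees of freedom each from every library. Python 3.11.15 with pandas 2.3.3, numpy 2.4.6 and matplotlib 3.10.9 was used. The limma fit was tested on simulated data.

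The members and lists were chosen with earlier results of these data known. Named genes were the 7 genes, at most 6 called or non-overlapping genes a list by smallest adjusted p, the nearest genome neighbours, the 2 closest profiles for each gene, and Nsrp1, Xist and Ddx3y. Other genes of the lists (Lck, Ptcra, Fcer1g, Hcst and marker genes) were named after their values were seen. Some genes of the marker lists are counted but not reported here by name.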

Additional observations from a re-analysis of the deposited data

How the results depend on the processing

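The direction of 5 of the 7 genes depended on the scaling, and Cd3d and Cd3e kept theirs under every setting tried. In place of 6 called higher and 0 lower, quantile normalization called 0 higher and 3 lower, the same FPKM total 1 and 1, and the length and GC correction 5 and 1, while limma with WT as 1 sample called 0 of the 7 (1 at an unadjusted p under 0.05). Quantile normalization reversed Cd3g (-0.28), Cd247 (-0.11), Cd4 (-0.27), Cd8a (-0.051) and Cd8b1 (-0.028), the same FPKM total reversed Cd3g (-0.074), Cd247 (-0.059) and Cd4 (-0.16), and the length and GC correction reversed Cd3g (-0.10). Why these scalings differ was not tested. Over all tested genes, 3693 were called higher and 3073 lower, but 904 and 6186 with the same FPKM total and 744 and 901 with WT as 1 sample.

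With 1 library left out, log2 fold changes ranged from 0.64 to 0.94 for Cd3d, -0.23 to -0.066 for Cd3e, 0.41 to 0.55 for Cd3g, 0.47 to 0.57 for Cd247, 0.32 to 0.50 for Cd4, 0.64 to 0.76 for Cd8a and 0.74 to 1.01 for Cd8b1. Apart from Cd4, which lost its call whichever WT library was left out, the calls stayed on their side of the threshold. The log2 difference of Cd3d to Cd3e ranged from 0.84 to 1.00, and that of Cd8b1 to Cd8a from 0.099 to 0.25.

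Same-numbered WT and cKO libraries did not deviate together (correlations of -0.022, 0.038 and 0.031 across genes), so the numbers were not taken as pairs. With the replicate number as a block, 6 of the 7 genes were still called higher and 0 lower, with 3513 and 2954 over all genes, and the ratios had an exact sign permutation p of 0.25, the smallest for 3 pairs, except Cd8b1 to Cd8a (0.50). The ratios after length and GC correction and after quantile normalization were added after seeing the data. The log2 difference of Cd8b1 to Cd8a turned from 0.16 to -0.11 with the former, and the other 6 ratios kept their direction. The correction moved Cd3d to Cd3g from 0.29 to 0.60, Cd3g to Cd3e from 0.66 to 0.39, Cd4 to Cd8a from -0.28 to -0.15 and the CD3 sum to the CD8 sum from -0.40 to -0.60. With 3 libraries a group, the exact tests cannot pass 0.05.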
